A study of Mus musculus with 8 samples.

Results

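Cholesterol handling was followed through 31 genes in white adipose tissue of female mice, chosen by name for their place in cholesterol synthesis, its control by SREBP2, movement of sterol inside the cell, and efflux under the LXR receptors. Of the 31 genes, 8 act in the mevalonate and isoprenoid steps, 11 in the sterol steps, 4 regulate SREBP2, 3 transfer or store sterol, and 5 belong to the LXR and efflux arm. All 31 were found and passed the filter on low counts, among 15185 features tested and 37048 in the files. Libraries came from wild-type mice of the inbred strain C57BL/6J, 2 h after tail vein injection of phosphate-buffered saline (control, 4 libraries) or of endostatin at 50 mg/kg (4 libraries). Endostatin is a fragment of collagen XVIII that holds back the growth of blood vessels, and the series asks how it acts on gene expression in this tissue. All the mice went without food after the injection and were sampled during the day. Libraries 1 and 2 of each group are batch 1 and libraries 3 and 4 are batch 2 in the labels, which do not say what differed between the batches. Which animal each library came from is not stated, so the p-values reflect variation among these libraries, part of which may be technical.

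Cells make cholesterol from acetyl-CoA through mevalonate, squalene and lanosterol, and the enzymes of this route are transcribed together by SREBP2. When membranes of the endoplasmic reticulum are rich in cholesterol, INSIG proteins hold the escort protein SCAP and SREBP2 there, and transcription of the enzymes is low. Oxysterols, which accumulate when cholesterol is plentiful, activate the LXR receptors, which induce the export pumps ABCA1 and ABCG1 and the ubiquitin ligase MYLIP, so the arms usually run in opposite directions. Fat cells hold much of the body's free cholesterol around their lipid droplets and are known to rely on uptake and efflux more than on synthesis.

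Promoter sequences are shown here for 5 genes. Lss, Nsdhl and Cyp51 are synthesis genes that varied together across libraries, Hmgcs1 is a synthesis gene that did not follow them, and Abca1 is an efflux gene. The choice was made with the library values known, and no link between the letters and the levels was tested. The sequences are from RefSeq (GRCm38.p6) and run 5′ to 3′ on the gene's strand, ending at the base before the start site. Of the 31 genes, 25 had an entry in the promoter table, and Fdps, Fdft1, Sqle, Stard4, Npc1 and Abcg1 had none. Capitals mark the letters TCACCCCAC, a form of the SREBP core TCACNCCAC, the NF-Y box CCAAT, which on the other strand reads ATTGG, and the E-box CACGTG, each searched on both strands; no match of 1 motif overlapped another in these stretches.
Hmgcs1, chr13:119690151-119690350, plus strand: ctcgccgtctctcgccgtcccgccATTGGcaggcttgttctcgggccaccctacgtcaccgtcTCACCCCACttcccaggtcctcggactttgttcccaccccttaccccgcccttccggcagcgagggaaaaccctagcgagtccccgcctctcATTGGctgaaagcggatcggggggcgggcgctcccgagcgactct
Lss, chr10:76531455-76531604, plus strand: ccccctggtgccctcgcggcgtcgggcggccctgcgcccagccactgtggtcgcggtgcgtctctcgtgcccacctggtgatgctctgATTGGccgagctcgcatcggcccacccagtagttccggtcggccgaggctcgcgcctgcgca
Nsdhl, chrX:72918371-72918520, plus strand: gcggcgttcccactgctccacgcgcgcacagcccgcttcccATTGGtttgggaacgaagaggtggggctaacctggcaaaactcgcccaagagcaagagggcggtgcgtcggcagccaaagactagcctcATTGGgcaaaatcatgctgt
Cyp51, chr5:4104698-4104847, minus strand: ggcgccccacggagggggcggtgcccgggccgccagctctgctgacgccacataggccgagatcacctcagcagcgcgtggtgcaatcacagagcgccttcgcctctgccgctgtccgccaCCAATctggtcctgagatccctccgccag
Abca1, chr4:53159896-53160045, minus strand: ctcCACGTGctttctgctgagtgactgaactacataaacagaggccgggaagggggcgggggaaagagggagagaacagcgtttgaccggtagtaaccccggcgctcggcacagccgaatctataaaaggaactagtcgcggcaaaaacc

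The NF-Y box was the letters most of the synthesis promoters shared. It lay in 15 of the 16 synthesis genes with an entry (93.8%) and in 15 of their 19 windows (78.9%), against 37.4% of all 32851 windows of 300 bases in the table. In the LXR and efflux arm 1 of 4 genes with an entry, Mylip, held it. The box was not particular to synthesis genes: 3 of 4 regulators (Srebf2, Insig1 and Insig2) and Soat1 held it too. Of all 25 members with an entry, 20 did (80%), against 41.1% of all genes in the table. An exact match to the SREBP core was found in 1 synthesis gene, Hmgcs1 (5.26% of synthesis windows against 1.24% of all windows). It starts 137 bases before the start site there and lies between NF-Y boxes. The E-box was in 3 synthesis genes, Hsd17b7, Sc5d and Dhcr7 (15.8% of windows against 7.15% of all), and in Abca1, Insig1 and Scap. Exact copies of the LXR repeat DR4, which is AGGTCA repeated after 4 bases, were in 0 member windows and in 0.0152% of all windows. Sites with other letters, such as imperfect repeats, were not searched for. A window without a match may therefore still hold a site for SREBP or LXR. These matches describe letters in a short window and say nothing of which factor was bound.

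The libraries held 15826783 to 23786594 estimated counts. Adipocyte markers (7 of 7 detected in every library) summed to 21223 to 44503 TPM (abundance per transcript length, summing to 1 fixed total per library) in the control libraries and 31039 to 38470 TPM in the endostatin libraries, and the tissue is labelled epididymal although the mice are female. Other tissues' markers differed between libraries. Markers of skeletal muscle (6 genes) reached 191.1 TPM in control 1 and 381.8 TPM in control 4, while the other libraries held 33.34 to 105 TPM. Markers of oviduct and uterus (9 genes) reached 491.3 TPM in control 3 and 120.9 TPM in endostatin 4, while the rest held 10.71 to 38.29 TPM. Of 9 markers of ovary and steroid-producing cells, 5 were detected in every library, with sums of 5.778 to 18.71 TPM, and Cyp19a1 and Fshr were at 0 in all of them. The description of endostatin 4 repeats the name of the read file given for endostatin 3. The values of these libraries differ (Fasn at 1303 and 17218 CPM), the labels were kept, and the synthesis median, Hmgcs1, Npc1 and Abcg1 are also given without endostatin 4.

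By median over these libraries the efflux pump Abca1 and the SREBP2 brake Insig1 stood highest of the 31 genes per transcript length. Most synthesis enzymes stood far lower. Abca1 had a median of 152 TPM (range 115 to 185) and Insig1 one of 142 TPM (77.6 to 315). The LXR receptor genes stood at 109 TPM for Nr1h3 (LXR alpha), the next in order, and 87.7 TPM for Nr1h2 (LXR beta). Among the synthesis enzymes Sc5d, a sterol desaturase, was highest at 94.2 TPM, between the receptors and ahead of Acat2 (cytosolic thiolase, the first step) at 72.6 TPM and Hmgcs1 (HMG-CoA synthase) at 65.6 TPM. The lowest were Sqle, the squalene epoxidase, at 9.15 TPM, Hsd17b7, a sterol ketone reductase, at 5.59 TPM and Idi1, the isopentenyl diphosphate isomerase, at 2.91 TPM. The ranges of Abca1 and Insig1 overlapped each other and that of Nr1h3 (75.4 to 138 TPM), as did those of Sc5d, Nr1h2 and Acat2 each other. In endostatin 4 Insig1 (77.6 TPM) stood below Nr1h3 (138 TPM), Insig2 (124 TPM), Hmgcs1 (118 TPM) and Nr1h2 (91.1 TPM). Even at their highest, Sqle (10.4 TPM), Hsd17b7 (7.14 TPM) and Idi1 (5.68 TPM) stayed below the lowest value of Sc5d (52.8 TPM).

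Between the endostatin and control groups, 0 of the 31 genes passed an adjusted p of 0.05 in edgeR's quasi-likelihood test over all features, and the adjusted p was 1 for each. The same test called 0% of the 15185 features. The unadjusted p was under 0.05 for 2 of 31 genes, Mvd and Acat2, against 3.19% of all features, and for 3 genes in DESeq2, 1 in limma-voom and 4 in limma-voom with quality weights, none of which passed after adjustment there. Leaving out 1 library moved the edgeR count from 0 (without control 4, endostatin 1 or endostatin 2) to 6 (without control 2). It was 5 without control 3, 4 without endostatin 3 and 1 without control 1 or endostatin 4. The share of all features was not computed for these other fits, so their counts are no result about the members. The values of the groups overlapped for 31 of 31 genes. Over all features, 0.698% had all endostatin libraries below all control libraries and 0.942% had them above. In bulk tissue, fewer cells of a type and less RNA per cell cannot be told apart, so a level here is a level in the tissue.

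Of the 19 synthesis genes, 17 had a negative log2 fold change (endostatin minus control), with a median of -0.25, against 53.4% of all features and a median of -0.01. The 5 genes of the LXR and efflux arm had a median of -0.02, with 4 negative. The synthesis median rested on few libraries: without endostatin 4 it was -0.02, with 10 of 19 negative, without control 1 it was -0.12 with 13 negative, and without control 4 it was -0.12 with 12 negative. It was -0.43 without control 2 and -0.49 without endostatin 3. Control 1 and control 4 were highest in muscle markers and were also the controls with the highest mean synthesis levels. The part of muscle in the synthesis median was not tested, and leaving out the highest controls raises this median by construction. Without both libraries it turned to 0.10 with 6 of 19 negative. Within batches it was -0.05 in batch 1, with 11 of 19 negative, and -0.38 in batch 2, with 16 negative. The efflux median was -0.25 in batch 1 and 0.21 in batch 2. Markers of other cells moved with the groups as well. The 10 hepatocyte markers summed to 151.6, 106, 18.1 and 26.93 TPM in control 1 to 4 and to 341.2, 510.7, 29.94 and 977.6 TPM in endostatin 1 to 4, above both controls of the same batch in each endostatin library. In endostatin 3 the margin was small, and some single markers lay below a control of its batch. Alb (albumin) stood at 18.3 CPM there, against 9.45 CPM in control 3 and 20.7 CPM in control 4. Its log2 fold change between the groups was 2.82 (edgeR unadjusted p = 0.0239). The 10 macrophage markers summed to 898.3 to 1338 TPM in control and 1145 to 2026 TPM after endostatin. Their part in the synthesis median was not tested.

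**Figure D1:**
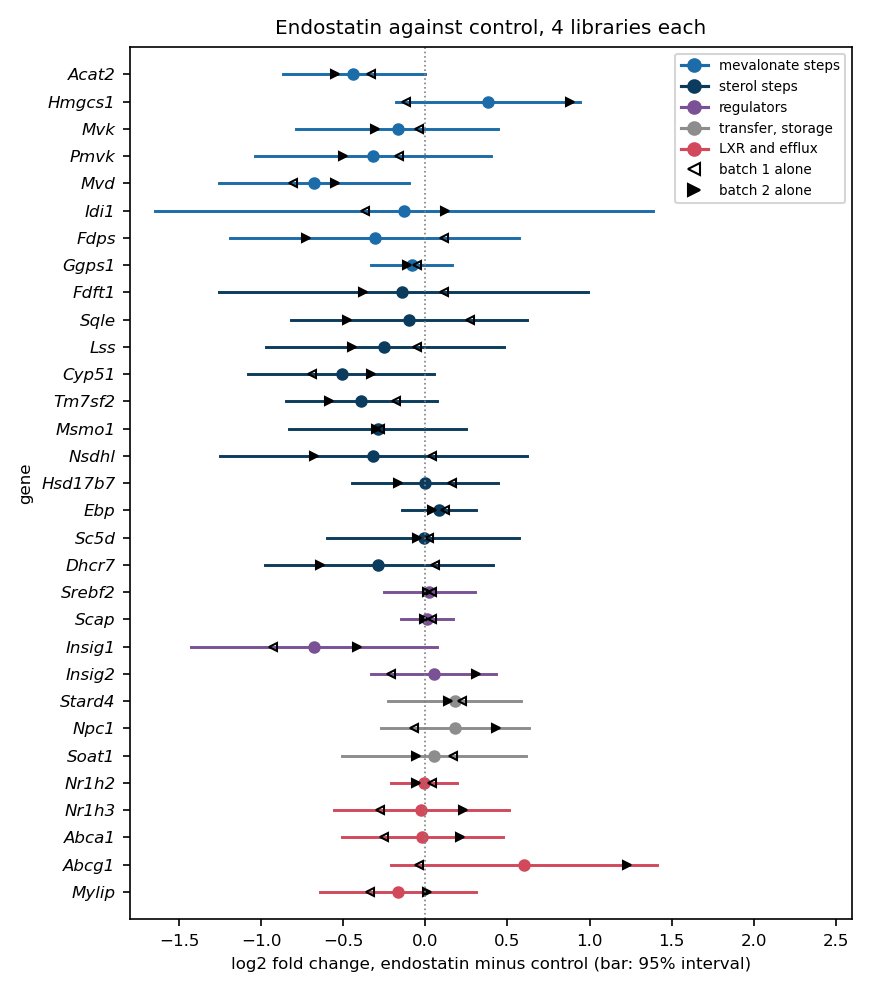
Log2 fold change (endostatin minus control, x axis) of each of the 31 genes (y axis), with points for the fit over both batches, bars for 95% intervals, colours for the role, and open and filled triangles for batch 1 and batch 2 alone. Most synthesis genes lie left of 0 with intervals that include 0, and the batches differ most for Hmgcs1 and Abcg1.

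In the mevalonate steps, which turn acetyl-CoA into the isoprenoid units of sterols, 7 of 8 genes had negative log2 fold changes and 0 passed the threshold. Mvd, which makes isopentenyl diphosphate, had the smallest p of all members. It stood at 13.5, 10.2, 8.68 and 11.1 CPM (counts scaled to library size after TMM) in control 1 to 4 and at 6.98, 6.52, 9.24 and 4.28 CPM in endostatin 1 to 4. Of the endostatin libraries only endostatin 3 reached above the lowest control library. The means were 10.9 ± 2.02 and 6.75 ± 2.03 CPM (SD, n = 4 each), with a log2 fold change of -0.68 ± 0.25 (SE) with a 95% interval from -1.26 to -0.10 (edgeR unadjusted p = 0.0266, adjusted p = 1). The change was -0.81 in batch 1 and -0.55 in batch 2.

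Acat2 makes acetoacetyl-CoA, the entry to the route. Its levels were 127, 90.6, 70 and 101 CPM in control 1 to 4 and 84.5, 88.3, 71.5 and 45.6 CPM in endostatin 1 to 4, so that endostatin 4 was lowest and control 1 highest. The log2 fold change was -0.44 ± 0.19, with an interval from -0.87 to -0.00 (edgeR unadjusted p = 0.0481, adjusted p = 1). Acat2 also had the smallest batch p of the members, with batch 2 below batch 1 by a log2 fold change of -0.45 ± 0.19 (edgeR unadjusted p = 0.0423, adjusted p = 0.499).

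Hmgcs1, which condenses acetoacetyl-CoA with acetyl-CoA, went the other way from its neighbours in the route. It stood at 135, 94.8, 93.5 and 86.7 CPM in control 1 to 4 and at 113, 98.6, 132 and 198 CPM in endostatin 1 to 4. Endostatin 4, where most synthesis genes were lowest, was the highest library for Hmgcs1 and stood at 2.01 times the median of the other libraries. The log2 fold change was 0.38 ± 0.24, from -0.18 to 0.94 (edgeR unadjusted p = 0.158, adjusted p = 1), and 0.15 without endostatin 4. It was -0.12 ± 0.24 in batch 1 and 0.88 ± 0.24 in batch 2, a difference of 1.00 ± 0.34 (edgeR interaction, unadjusted p = 0.0223, adjusted p = 0.997). The main transcript of Hmgcs1 held 63.1% to 77.8% of the gene's TPM, with the highest share in endostatin 4. Its promoter, printed above, is the only member promoter with an exact match to the SREBP core. The part of this match in the levels of Hmgcs1 was not tested.

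The other mevalonate genes gave intervals that include 0. Fdps, the farnesyl diphosphate synthase, had 33.8 ± 12.5 CPM in control and 28.6 ± 12.5 CPM after endostatin, with 10.9 CPM in endostatin 4 against 19.7 to 49.7 CPM elsewhere. Pmvk, the phosphomevalonate kinase, had a log2 fold change of -0.32 ± 0.31 and Mvk, the mevalonate kinase, one of -0.17 ± 0.27. Idi1 had the widest interval of the members, from -1.65 to 1.39, and rested on 13 to 140 estimated counts per library. Ggps1, which makes geranylgeranyl diphosphate for protein prenylation and not for sterols, had 39.5 ± 4.4 and 37.3 ± 4.49 CPM and an interval from -0.33 to 0.16.

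In the sterol steps, from squalene to cholesterol, 10 of 11 genes had negative log2 fold changes and 0 passed. Cyp51, the lanosterol demethylase, had the smallest p among them. It stood at 58.7, 27.9, 26.9 and 30 CPM in control 1 to 4 and at 27.2, 26.5, 27.6 and 17.7 CPM in endostatin 1 to 4. The other 6 libraries lay between 26.5 and 30 CPM, with control 1 far above and endostatin 4 below them. The log2 fold change was -0.51 ± 0.24, from -1.08 to 0.05 (edgeR unadjusted p = 0.0706, adjusted p = 1), and -0.22 without control 1.

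Fdft1, squalene synthase, commits the route to sterols. It stood at 45, 13.8, 20 and 24.2 CPM in control 1 to 4 and at 23.2, 40.1, 27 and 6.88 CPM in endostatin 1 to 4, a log2 fold change of -0.14 ± 0.49. Sqle, often rate-limiting after squalene, had 15.7, 8.52, 13 and 15 CPM in control and 15.9, 13.3, 13.9 and 6.23 CPM after endostatin, with a log2 fold change of -0.10 ± 0.31. In both genes control 2 and endostatin 4 were the lowest libraries, 1 in each group, so the groups overlapped over most of their range.

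Msmo1, a methylsterol oxidase, had 26.3, 15.2, 12.8 and 18.4 CPM in control 1 to 4 and 17.2, 17, 16 and 9.26 CPM in endostatin 1 to 4, a log2 fold change of -0.29 ± 0.23. Sc5d had 199, 113, 91.8 and 126 CPM in control and 168, 149, 140 and 70.6 CPM after endostatin. Its group means, 133 ± 46.7 and 132 ± 42.4 CPM, differed far less than the libraries within each group, and the log2 fold change was -0.01 ± 0.25. Both genes were named for their batch values: batch 2 against batch 1 gave -0.42 ± 0.23 for Msmo1 and -0.55 ± 0.25 for Sc5d (edgeR adjusted p = 0.566 and 0.526).

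Among the remaining sterol genes, Nsdhl, the sterol decarboxylase, spread most, from 10.4 CPM in endostatin 4 to 63.8 CPM in control 1. Lss, the lanosterol synthase, ran from 22.5 to 80.5 CPM between the same libraries. Dhcr7, the last reductase of the route, stood at 9.86 CPM in endostatin 4 and at 18.3 to 29.5 CPM elsewhere. Their log2 fold changes were -0.32 ± 0.40 for Nsdhl, -0.25 ± 0.31 for Lss and -0.29 ± 0.30 for Dhcr7. Tm7sf2, a sterol reductase, had -0.39 ± 0.20 and Hsd17b7 -0.00 ± 0.19. Ebp, the sterol isomerase, hardly varied: its levels were 26.2 ± 2.4 and 27.7 ± 0.834 CPM, with an interval from -0.14 to 0.31.

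**Figure D2:**
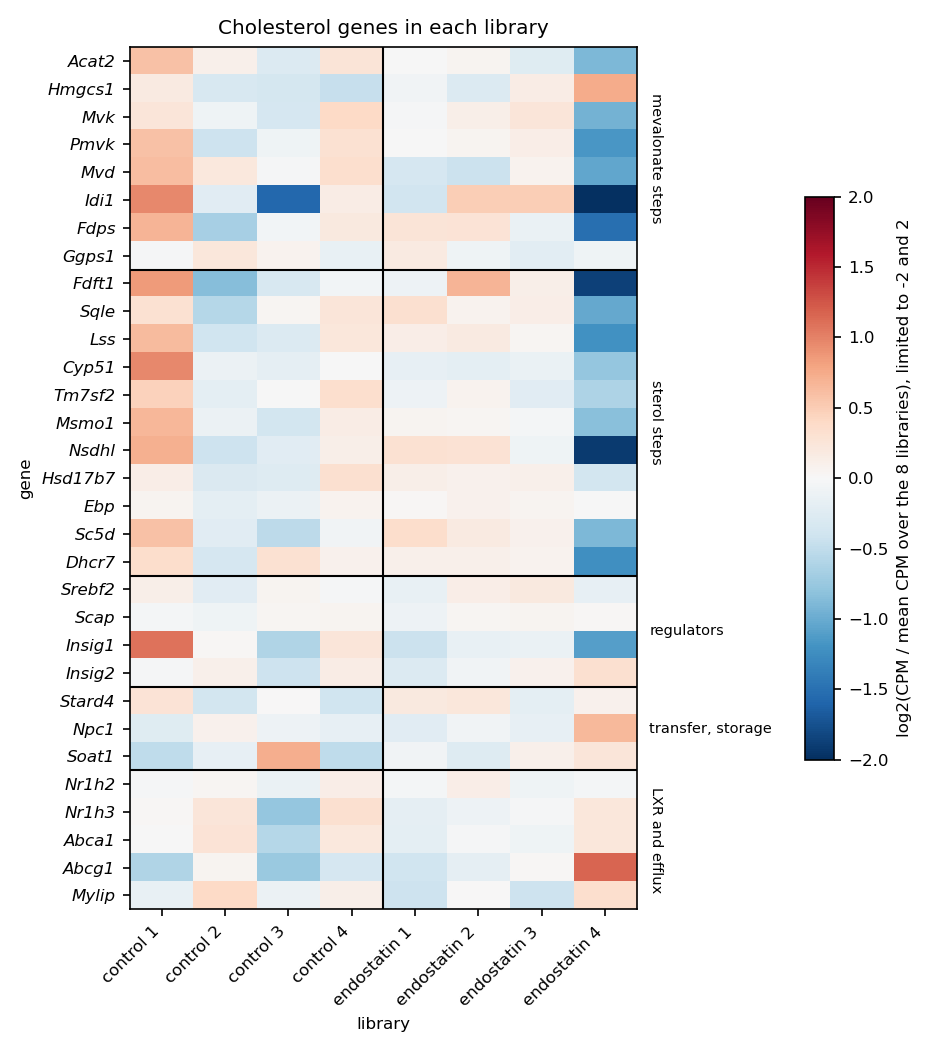
Level of each of the 31 genes (rows, grouped by role) in each of the 8 libraries (columns, control left of the line), as log2 of the CPM over the gene's mean CPM, in colour from -2 (blue) to 2 (red). Endostatin 4 is blue through most synthesis genes and red for Hmgcs1, Npc1 and Abcg1, and control 1 is red through most synthesis genes and Insig1.

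The synthesis genes varied together from library to library. Endostatin 4 was the lowest of the 8 libraries in 16 of 19 synthesis genes (18.4% of all features), the exceptions being Hmgcs1, Ggps1 and Ebp, and control 1 was the highest in 13 of 19 (12.4% of all features). Counts scaled by library size only gave 15 and 12, and TPM gave 15 and 10. In endostatin 4, 10 of 19 synthesis genes stood below 0.5 times the median of the other libraries, against 2.6% of 14352 features of at least 1 CPM. These libraries were singled out after the values were seen. The numbers are a description and give no test of the groups.

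Averaged over the 19 genes, the deviation from each gene's own mean (log2 CPM) was 0.58, -0.17, -0.15 and 0.21 in control 1 to 4. In endostatin 1 to 4 it was 0.12, 0.17, 0.11 and -0.86. Thus 3 endostatin libraries lay within 0.11 to 0.17, inside the control range, and the fourth lay below it. The group means of these deviations were 0.12 ± 0.36 and -0.12 ± 0.50 (SD, n = 4 each).

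In their list mean, fatty acid synthesis genes, the targets of the related factor SREBP1, took the same order at the ends. The mean deviation of the 11 genes was 1.03 in control 1, -0.47 to 0.61 in the 6 middle libraries and -2.08 in endostatin 4. Fasn, the fatty acid synthase, stood at 1303 CPM in endostatin 4 and at 14070 to 42371 CPM in the others. Fads1 and Fads2 departed from the order of the list mean. Fads2 was highest in endostatin 4 (40.2 CPM), and Fads1 was lowest in control 3 (88.1 CPM) and highest in control 4 (163 CPM). Srebf1 itself was highest in control 1 (784 CPM) and lowest in endostatin 4 (252 CPM). The summed adipocyte markers stood at 31039 TPM in endostatin 4, inside the range of the other libraries (21223 to 44503 TPM). Gene by gene, Lep was lowest of the 8 libraries there (275 CPM), and Adipoq (1951 CPM), Plin1, Lipe, Retn and Car3 were lower only in control 3, while Cidec (3719 CPM) lay mid-range. Their part in the synthesis levels was not tested.

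Markers of other cells also stood high in endostatin 4. The hepatocyte sum, 977.6 TPM, was the highest of the 8 libraries. The macrophage sum was 2026 TPM there and 1948 TPM in endostatin 3. By CPM, Mrc1, C1qa, C1qb and Trem2 stood higher in endostatin 3. The other macrophage markers (Adgre1, Cd68, Csf1r, C1qc, Lyz2 and Gpnmb) stood higher in endostatin 4, from C1qc (137 against 135 CPM) to Gpnmb (30.2 against 8.39 CPM). Fibroblast markers (5 genes) summed to 2731 TPM in endostatin 4 against 1346 to 1920 TPM elsewhere. The synthesis deviation was -0.86 in endostatin 4 and 0.11 in endostatin 3. The part of these markers in the levels of the synthesis genes was not tested.

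**Figure D3:**
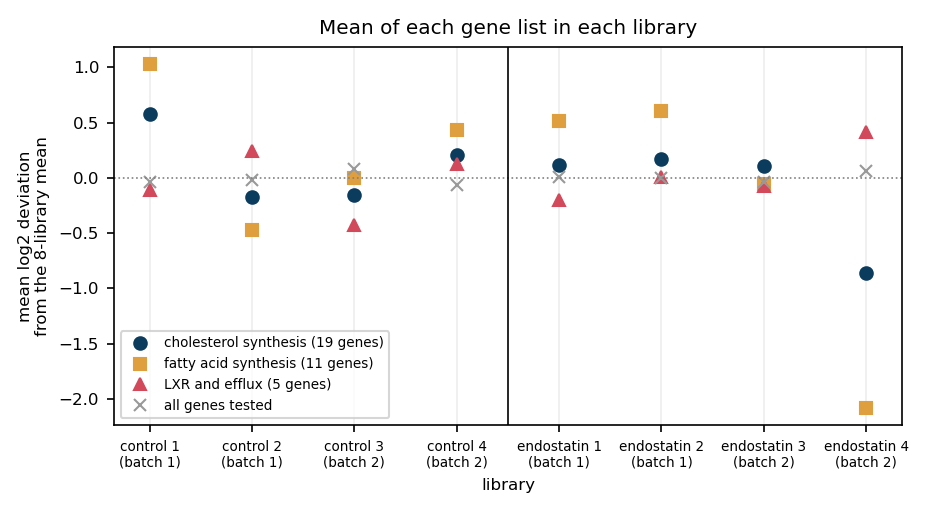
Mean deviation of each gene list from the 8-library mean (y axis, log2 CPM) in each library (x axis, with its batch), for cholesterol synthesis, fatty acid synthesis, the LXR and efflux genes and all genes tested. Synthesis runs from 0.58 in control 1 to -0.86 in endostatin 4, fatty acid synthesis from 1.03 to -2.08, and all genes tested stay within -0.06 to 0.08.

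Of the regulators, the genes for SREBP2 and its escort were among the steadiest members and Insig1 among the most variable. Srebf2, which encodes SREBP2, stood at 75.5, 59.4, 72.2 and 68.4 CPM in control 1 to 4 and at 62.5, 75.9, 79.7 and 62.1 CPM in endostatin 1 to 4. Its log2 fold change was 0.02 ± 0.12, with an interval from -0.25 to 0.30. Scap, the escort, had 65.5, 63.2, 68.8 and 69.9 CPM in control and 62.7, 69.2, 69.4 and 68 CPM after endostatin, with a log2 fold change of 0.01 ± 0.07 with the narrowest interval of the members, from -0.15 to 0.17. For both genes endostatin 4 lay inside the range of the other libraries, as it did for the enzymes Ggps1 and Ebp and for no other synthesis gene.

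Insig1 encodes the retention protein that is itself a target of SREBP. It stood at 483, 233, 150 and 270 CPM in control 1 to 4 and at 170, 206, 207 and 106 CPM in endostatin 1 to 4. Control 1 was the highest and endostatin 4 the lowest library, the order of the synthesis enzymes. The means were 284 ± 142 and 172 ± 47.1 CPM and the log2 fold change was -0.68 ± 0.32, from -1.43 to 0.07 (edgeR unadjusted p = 0.0702, adjusted p = 1), and -0.38 without control 1. It was -0.93 in batch 1, which holds control 1, and -0.42 in batch 2. Insig2, the other retention protein, had 50.8 ± 8.5 and 52.9 ± 9.22 CPM and was highest in endostatin 4 (64.6 CPM).

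The genes for transfer and storage had log2 fold changes of 0.05 to 0.18, and 0 of 3 passed. Npc1, the lysosomal exporter of cholesterol taken up with lipoproteins, stood at 59, 73.4, 64.5 and 62 CPM in control 1 to 4 and at 59.6, 66.2, 62 and 109 CPM in endostatin 1 to 4. All but endostatin 4 lay between 59 and 73.4 CPM, and the log2 fold change was 0.18 ± 0.19, and -0.06 without endostatin 4. Stard4, a cytosolic sterol carrier, had 14.9, 9.51, 12.4 and 9.32 CPM in control and 14, 14.4, 10.7 and 13.1 CPM after endostatin, with a log2 fold change of 0.18 ± 0.18.

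Soat1 esterifies cholesterol for storage. It stood at 28.1, 35.5, 66.2 and 28.2 CPM in control 1 to 4 and at 37.9, 33.6, 42.9 and 47.4 CPM in endostatin 1 to 4. Control 3, the library with the most oviduct and uterus signal, was highest, and the part of those cells in the value was not tested. The log2 fold change was 0.05 ± 0.24 between the groups and 0.45 ± 0.24 between batch 2 and batch 1 (edgeR adjusted p = 1 and 0.56).

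In the LXR and efflux arm 0 of 5 genes passed and Abcg1 had the highest log2 fold change of all members. Abcg1, which passes cholesterol to high-density lipoprotein, stood at 41, 64.4, 37.2 and 49.3 CPM in control 1 to 4 and at 47.2, 55.1, 63.3 and 140 CPM in endostatin 1 to 4. Of the endostatin libraries, endostatin 4 alone exceeded the highest control library. The log2 fold change was 0.60 ± 0.35, from -0.21 to 1.41 (edgeR unadjusted p = 0.128, adjusted p = 1), and 0.19 without endostatin 4. It was -0.04 ± 0.39 in batch 1 and 1.23 ± 0.39 in batch 2, a difference of 1.28 ± 0.55 (edgeR interaction, unadjusted p = 0.0545, adjusted p = 0.997). Macrophages also express Abcg1. Their markers summed to 2026 TPM in endostatin 4, the highest sum, and to 1948 TPM in endostatin 3, and single markers differed between these libraries in both directions. The part of macrophages in the level of Abcg1 was not tested.

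Abca1, which loads cholesterol onto lipid-poor apolipoprotein, stood at 897, 1083, 604 and 1038 CPM in control 1 to 4 and at 786, 885, 852 and 1051 CPM in endostatin 1 to 4. The means were 906 ± 216 and 893 ± 113 CPM. Its log2 fold change was -0.02 ± 0.21, with an interval from -0.51 to 0.47. Endostatin 4 was thus not set apart for Abca1 as it was for Abcg1, at 1.19 and 2.84 times the median of the other libraries. Control 3 was lowest instead, at 0.673 times that median.

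Nr1h3 encodes LXR alpha, the form typical of fat, liver and macrophages. It stood at 105, 123, 61 and 130 CPM in control 1 to 4 and at 91.7, 96.3, 102 and 121 CPM in endostatin 1 to 4, a log2 fold change of -0.03 ± 0.23. Nr1h2, the widely expressed LXR beta, had 73.6 ± 5.78 and 72.9 ± 4.77 CPM. Mylip, whose product marks lipoprotein receptors for breakdown, had 38.7, 56.8, 39.6 and 46.6 CPM in control and 32.4, 43.2, 32.4 and 54.2 CPM after endostatin, with a log2 fold change of -0.17 ± 0.21. Control 3 was the lowest library in 4 of the 5 genes of this arm by CPM (21.1% of all features) and in 2 of 5 by TPM (Abca1 and Nr1h3) or by library size only. Its adipocyte markers also had the lowest sum (21223 TPM). The part of the adipocyte share in these levels was not tested.

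**Figure D4:**
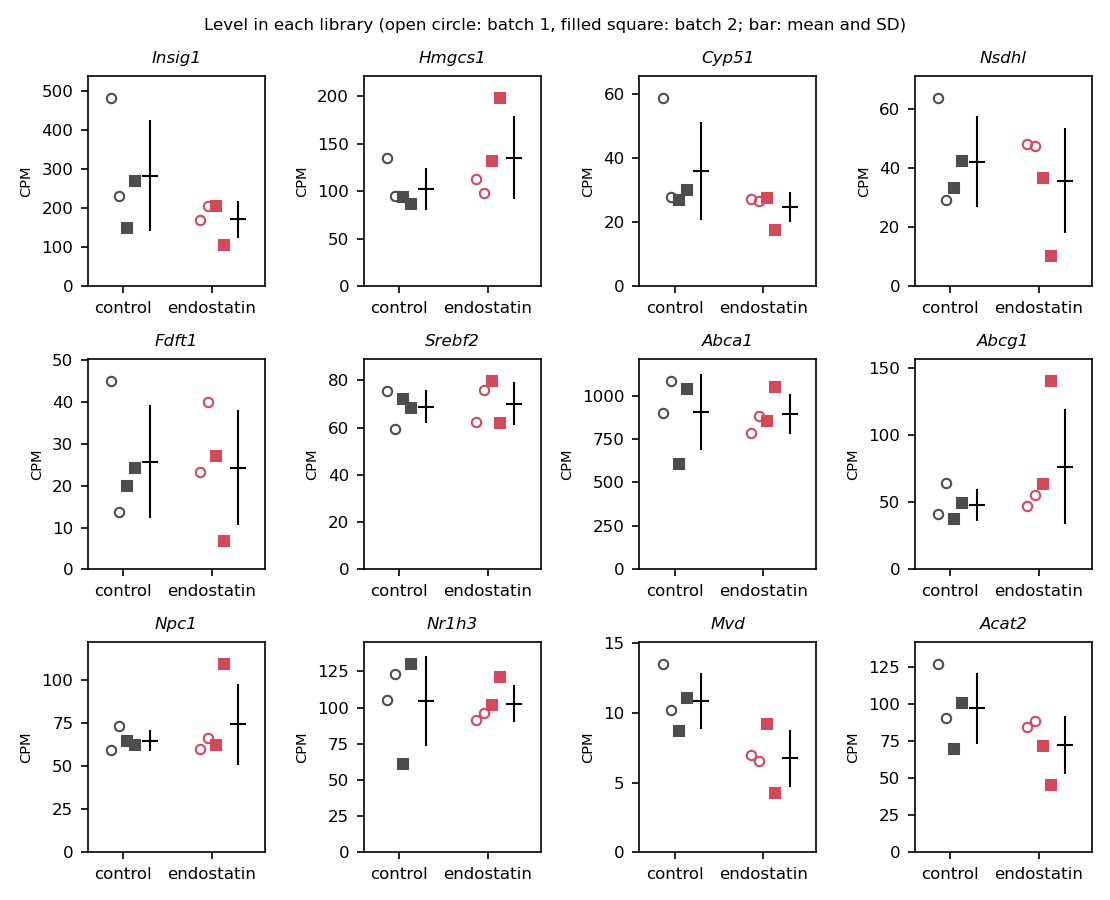
CPM (y axis, from 0) of 12 genes in each library of the control and endostatin groups, with open circles for batch 1, filled squares for batch 2 and a bar for mean and SD (n = 4). The groups overlap in all 12 panels, endostatin 4 stands apart upward in Hmgcs1, Abcg1 and Npc1 and downward in Cyp51, Nsdhl and Fdft1, and control 1 stands high in Insig1 and Cyp51.

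Set against each other, the arms lay farthest apart in endostatin 4. The synthesis deviation minus the efflux deviation (log2 CPM) was 0.69, -0.42, 0.27 and 0.08 in control 1 to 4 and 0.32, 0.17, 0.18 and -1.29 in endostatin 1 to 4. Control 1 had the next widest gap, in the other direction, and the endostatin libraries other than endostatin 4 lay inside the control range. In endostatin 4 the efflux deviation was 0.42, the highest of the 8 libraries, of which Abcg1 gave the most.

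Between the batches, 0 of 31 genes passed edgeR's test, against 0.0395% of all features, and the lowest adjusted p of a member was 0.499. Of the 19 synthesis genes, 17 had lower values in batch 2, with a median log2 fold change of -0.23, against 47.9% of all features. This median also moved with single libraries. It was -0.14 without control 1 and -0.17, with 12 negative, without endostatin 4. It was -0.43 without control 2 and -0.48 without endostatin 3. Without both control 3 and endostatin 4 it was -0.01, with 11 negative. The efflux median over all libraries was -0.01. For the batch by treatment interaction 0 members passed and 0% of all features did, with a lowest member adjusted p of 0.997. Hmgcs1 was the only member with an unadjusted interaction p under 0.05. Batch 2 holds endostatin 4, and the mitochondrially encoded share of counts was 4.23% to 5.19% in batch 1 and 2.13% to 3.31% in batch 2. Within each batch both endostatin libraries had a lower share than both control libraries (4.44% and 4.23% against 4.58% and 5.19%, then 2.21% and 2.13% against 2.82% and 3.31%). The part of this share in the members' values was not tested.

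Of 57 further genes of the pathway in 6 lists, 56 were tested and 0 passed in either direction. Of these 56, 38 had negative log2 fold changes (67.9%), with a median of -0.05, against 53.4% of all features and a median of -0.01. The counts of single lists below are description beside that share. In SREBP processing and sterol sensing 4 of 10 had positive values, with Srebf1 at -0.43 ± 0.26 and Rnf145, a sterol-responsive ubiquitin ligase, at 0.04 ± 0.09. In uptake and lysosomal release 4 of 9 were positive. Scarb1, the receptor for high-density lipoprotein, had 149 ± 37.6 and 118 ± 20.1 CPM, with a log2 fold change of -0.32 ± 0.14 (edgeR unadjusted p = 0.0468, adjusted p = 1). Lrp1, a large lipoprotein receptor, had 0.29 ± 0.19 and Nceh1, a cholesteryl ester hydrolase, 0.47 ± 0.33.

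Among carriers of sterol between membranes 7 of 8 were negative (53.4% of all features), with a median of -0.18. Gramd1b, which carries cholesterol from the plasma membrane to the endoplasmic reticulum, had 37.9 ± 9.4 and 27.8 ± 8.09 CPM, with a log2 fold change of -0.43 ± 0.14 (edgeR unadjusted p = 0.0153, adjusted p = 1). It stood at 29.2, 30.7, 48.4 and 43.2 CPM in control 1 to 4 and at 21.9, 24.1, 25.6 and 39.8 CPM in endostatin 1 to 4, below both controls of the same batch in each endostatin library. Its relative Gramd1a had -0.17 ± 0.08.

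Of the LXR partners and targets, 7 of 10 tested genes were positive and Ch25h, the cholesterol hydroxylase, was below the count filter. Pltp, the phospholipid transfer protein, had 0.37 ± 0.23 and Lpcat3, a lysophospholipid acyltransferase, -0.25 ± 0.12. Genes that use isoprenoids for prenylation, dolichol and coenzyme Q had a median of -0.05, with 7 of 8 negative and Fntb, a farnesyltransferase subunit, at -0.14 ± 0.12. Fatty acid synthesis genes had a median of -0.42, with 10 of 11 negative. Thrsp, a lipogenic nuclear protein, had -0.67 ± 0.41, and the exception, Fads2, a fatty acid desaturase, 0.12 ± 0.16. The negative values were 4 of 11 in batch 1 and 10 of 11 in batch 2, which holds endostatin 4.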

How the data were processed

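The authors quantified transcripts with Salmon, and GRCm39 is the build named per the submitters' processing notes (version and options: not given in the sources used here). Their deposited files hold estimated counts and TPM for 115620 transcripts. Per the labels' protocols, RNA was depleted of ribosomal RNA and libraries keep strand. Transcripts were named through GENCODE M21 (98.31% matched, the others kept as own features), and counts were summed per gene and rounded. Where transcripts share sequence Salmon splits their reads, which leaves overlapping or near-identical genes uncertain.

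The edgeR filterByExpr function kept 15185 features. The quasi-likelihood test of edgeR (version 4.0.16, under R 4.3.3) was run on TMM-scaled counts (terms batch and treatment; two-sided; Benjamini-Hochberg over all features; threshold 0.05), and a second model held the interaction. The script was tested on simulated counts. Log2 CPM used a prior count of 2. Deviations are from a gene's mean over the 8 libraries. TPM served to compare genes and to sum markers. Alternatives were DESeq2 1.42.0, limma-voom (limma 3.58.1) with and without quality weights, other scalings and filters, transcript length offsets, no batch term, a replicate block, and leaving out libraries.

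The members and lists were chosen with earlier results of these data known. All 31 members are reported. Values in every library are given for 9 members set by name, for the 4 of each direction with the smallest treatment p and batch p, and for the 2 with the smallest interaction p, 18 genes in all. Of each further list, up to 2 genes per direction with the smallest p could be named, and other features serve as markers. Library values of Gramd1b, Fasn, Srebf1, Fads1 and Fads2 were singled out after they were seen.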

Additional observations from a re-analysis of the deposited data

Results flagged for a closer look

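In 9 instances 1 library stood far from the other 3 of its group, with a gap to its neighbour, divided by the group's range beyond Dixon's 95% critical value. There were 62 groups of 4 libraries (31 genes in 2 groups). Chance gives about 1 in 20 for a single group, and these groups are not independent, since the genes vary together. The share over all features under this rule was not computed, so the count describes libraries and is no result about the members. Endostatin 4 accounted for 7 of the 9. It was the lowest of its group for Dhcr7 (0.967), Hsd17b7 (0.938), Cyp51 (0.893), Msmo1 (0.855), Lss (0.852) and Pmvk (0.847), and the highest for Npc1 (0.866). Control 1 was the highest of its group for Cyp51 (0.902) and Hmgcs1 (0.833).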

How the results depend on the processing

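No member passed the threshold in edgeR or under any of 20 alternatives, and the lowest adjusted p of a member was 0.579, without control 3 and endostatin 4. At an unadjusted p under 0.05 there were 2 members in edgeR, 3 in DESeq2, 1 in limma-voom and 4 with quality weights. In edgeR there were 0 to 6 when 1 library was left out. Other edgeR settings gave 0 (without control 1 and control 4) to 4 (with transcript length offsets, or without control 3 and endostatin 4). The share over all features was computed for the main fit only, so these counts are no result about the members. Over all features DESeq2 called 3 higher and 1 lower, and quality weights called 1, none of them members. The synthesis median was -0.49 to -0.02 when 1 library was left out and -0.28 to 0.10 under the other 12 settings. The efflux median was -0.21 to 0.10 and -0.26 to 0.11. Of the 30 members other than Hsd17b7 (log2 fold change -0.00), 10 kept their sign in all 20 alternatives: Acat2, Hmgcs1, Mvd, Cyp51, Tm7sf2, Ebp, Insig1, Stard4, Abcg1 and Mylip. Leaving out 1 library moved these too: -0.56 to -0.30 for Acat2, 0.15 to 0.58 for Hmgcs1, -0.97 to -0.53 for Mvd, -0.69 to -0.22 for Cyp51, -0.55 to -0.27 for Tm7sf2, 0.02 to 0.13 for Ebp, -0.96 to -0.38 for Insig1, 0.05 to 0.31 for Stard4, 0.19 to 0.86 for Abcg1 and -0.37 to -0.01 for Mylip. Abcg1 had 0.09 without control 3 and endostatin 4. The other 20 turned sign in at least 1. Apart from settings with fewer libraries, the cause of a turn was not tested. Replicate numbers were not taken as pairs, since same-numbered libraries had correlations of deviations of 0.211, 0.144, -0.0731 and -0.295 for numbers 1 to 4, and only number 2 matched itself best. With the replicate block 0 members passed, the synthesis median was -0.28 and the efflux median 0.01.

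Log2 fold changes of members that turned sign are given by setting. Without control 1 and control 4 they were 0.12 for Mvk, 0.06 for Pmvk, 0.75 for Idi1, 0.10 for Fdps, 0.43 for Fdft1, 0.17 for Sqle, 0.17 for Lss, 0.08 for Msmo1, 0.07 for Nsdhl, 0.34 for Sc5d, -0.28 for Soat1, 0.04 for Nr1h2, 0.19 for Nr1h3 and 0.11 for Abca1. Without control 3 and endostatin 4 they were 0.12 for Fdft1, 0.14 for Sqle, 0.06 for Sc5d, 0.03 for Dhcr7, -0.17 for Insig2 and -0.05 for Npc1. With transcript length offsets they were 0.07 for Idi1, 0.13 for Ggps1, -0.02 for Srebf2 and 0.03 for Nr1h2. With library size only they were 0.01 for Sc5d, 0.01 for Nr1h3 and 0.01 for Abca1, with the replicate block 0.02 for Nr1h3 and 0.01 for Abca1, in limma-voom 0.03 for Nr1h3 and 0.01 for Abca1, and with quality weights -0.09 for Insig2.

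Leaving out 1 library gave -0.41 to 0.04 for Mvk, -0.96 to 0.21 for Idi1, -0.53 to 0.20 for Fdft1, -0.33 to 0.15 for Sqle, -0.24 to 0.16 for Sc5d, -0.06 to 0.09 for Srebf2, -0.02 to 0.03 for Scap, -0.12 to 0.14 for Insig2, -0.06 to 0.29 for Npc1, -0.13 to 0.35 for Soat1, -0.07 to 0.05 for Nr1h2, -0.27 to 0.15 for Nr1h3 and -0.21 to 0.10 for Abca1.

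With 4 libraries in each group the 95% interval of a member's log2 fold change was narrowest for Scap (-0.15 to 0.17) and widest for Idi1 (-1.65 to 1.39), which also had the fewest counts, with 13 estimated counts in endostatin 4.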
